A study of Mus musculus with 18 samples.

Results

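The data described here are the net change in the transcriptome of control gastruloids over the whole culture, from the stem cells they were made from to 120 h. The comparison was fixed by the labels. The 3 control libraries labelled day 5 (120 h) were set against the 3 control libraries labelled day 0 (0 h), so 6 of the 18 libraries of the series carry it, and 17797 genes passed the filter on low counts and were tested. A gastruloid is an aggregate of embryonic stem cells that, in suspension, elongates and forms tissues resembling those of the trunk of the early embryo. All 6 libraries came from the mouse embryonic stem line RHKI, a derivative of E14Tg2a, and hold polyadenylated RNA sequenced from a stranded kit. The line carries a knocked-in, HA-tagged Rnaseh1 that doxycycline can induce. The day 5 controls and the day 0 controls both carry this insertion, and the labels describe doxycycline for the induced libraries alone. The stem cells were kept in NDiff 227 medium with LIF, serum, the GSK3 inhibitor CHIR-99021 and the MEK inhibitor PD0325901. The labels do not say whether RHKI is 1 clone, whether gastruloids were pooled, or whether replicates were separate cultures. The p-values therefore measure only the spread between libraries, which may be technical. That spread was estimated within the groups of all 18 libraries, not of these 6 alone.

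In the mouse, naive stem cells held in such medium resemble the inner cell mass of the blastocyst and express Pou5f1, Nanog, Esrrb and their partners. When the inhibitors and LIF are withdrawn, cells pass through a formative state and then a state like the primitive streak. Posterior progenitors then give rise to neural tube and somites, while Hox genes are activated in the order in which they lie along their clusters. A comparison of the endpoints alone records what differs after all of these steps. It does not show a gene that changes and comes back, for which the control day 3 values (72 h) are given beside the endpoints in a few places.

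Expected counts summed to 28025314 to 37393018 per day 5 library and to 27654553 to 35318785 per day 0 library. Levels are given as TPM, the authors' measure of transcript abundance scaled for length and depth, and fold changes come from edgeR's quasi-likelihood test on the expected counts, as day 5 over day 0. A gene is said to rise or fall when its Benjamini-Hochberg adjusted p was under 0.05. Because these are bulk libraries, fewer cells of a type and less RNA per cell cannot be told apart. Rnaseh1, the gene carried by the insertion, stood at 24.02, 22.8 and 22.9 TPM in the day 5 controls. In the day 0 controls it was at 26.7, 29.1 and 29.7 TPM. Its log2 fold change was -0.52 ± 0.08 (SE; adjusted p = 8.2e-06, edgeR). Whether reads of the inserted copy are included in these values is not known.

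Most of the tested transcriptome differed between the endpoints. At day 5, 6924 genes were higher (38.9% of those tested) and 7164 were lower (40.3%). Many of these differences were small. A change of at least 2-fold was called for 4142 genes (23.3%) in the upward and 4117 genes (23.1%) in the downward direction, and at least 64-fold for 554 and 935 genes. By levels alone, the CPM of the 3 day 5 libraries lay wholly above those of the 3 day 0 libraries for 6967 genes (39.1%) and wholly below them for 7110 genes (40.0%). At the other end, 4109 genes (23.1%) had a 95% interval that lay wholly within 1.5-fold of no change in either direction. These are called genes with no net change beyond 1.5-fold. Of them, 2232 were also called as changed, by less than that, and 1877 were not. The remaining 1832 genes were neither called nor held within that range. On the TPM scale, as log2(TPM + 1), 59.6% of the calls were higher at day 5 (8080 against 5470 lower), compared with 49.1% on the scale of the edgeR fit. The median log2 fold change over all genes moved with it, at -0.02 in the edgeR fit and 0.14 on the log2(TPM + 1) scale, so small log2 changes depend on the scaling. Fsd1l and Ina, at -0.24 and -0.22 in the edgeR fit, had the opposite sign on that scale.

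**Figure D1:**
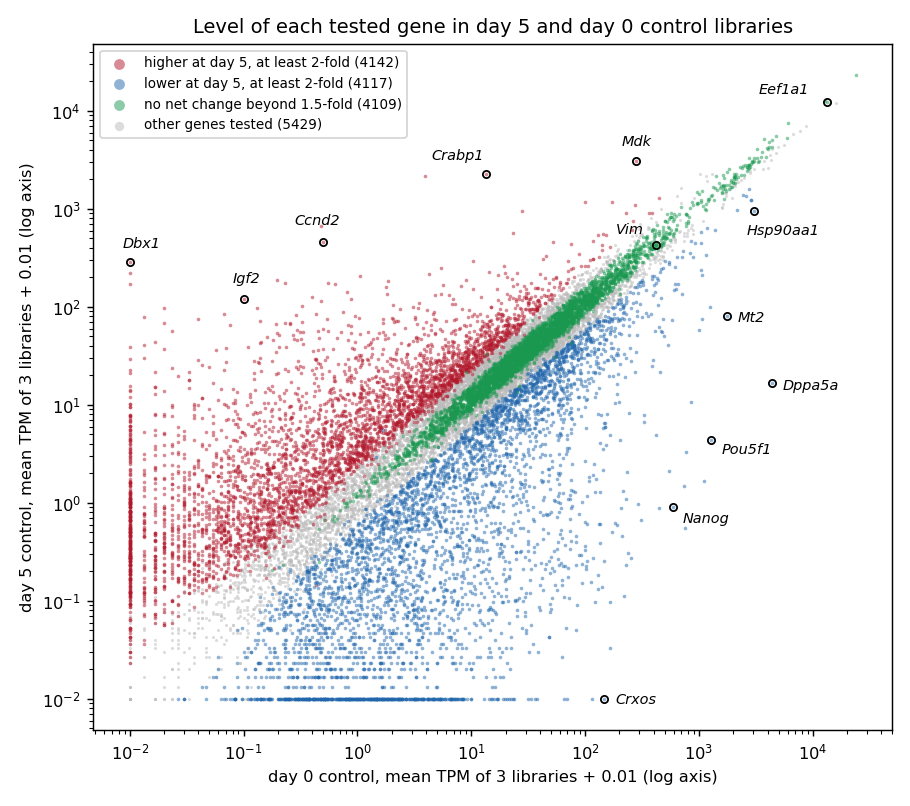
Mean level of each tested gene in the 3 day 5 controls against its mean level in the 3 day 0 controls, as TPM on log axes. Both axes have 0.01 TPM added. Red points are genes at least 2-fold higher, blue at least 2-fold lower and green without net change beyond 1.5-fold; Dppa5a and Pou5f1 lie far below the green band, and Crabp1 and Mdk far above it.

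The share of genes with no net change was larger at higher expression levels. Among 3968 genes whose mean over both groups was under 1 TPM it was 0.428%, among 5243 genes at 1 to 10 TPM it was 10.7%, among 7098 genes at 10 to 100 TPM it was 38.2%, and among 1488 genes at 100 TPM or more it was 54.9%. The median standard error of the log2 fold change was 0.536 in the lowest of these bins and 0.0627 in the highest. Of the genes under 1 TPM, 36.9% rose and 31.7% fell by at least 2-fold. Among the genes at 100 TPM or more, 4.64% rose and 13.2% fell by at least 2-fold. Noncoding genes held few genes with no net change. The share was 1.89% of 528 lincRNAs and 2.09% of 382 antisense genes, against 26.5% of 14733 protein-coding genes. Their median levels were also lower, at 0.796 and 0.866 TPM against 12.8 TPM for protein-coding genes. Gene type and level were not separated.

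Genes expressed at both endpoints made up the bulk of both transcriptomes. A level of at least 1 TPM in all 3 libraries was reached by 12735 genes at day 5 and by 12505 at day 0, and 11008 genes reached it in both. Of the 10994 of these that were tested, 4075 (37.1%) had no net change beyond 1.5-fold, 1474 rose and 1605 fell by at least 2-fold, and the median absolute log2 fold change was 0.55. Genes present at 1 endpoint and near 0 at the other were far fewer. There were 259 genes at 1 TPM or more in every day 5 library and under 0.1 TPM in every day 0 library. The converse held for 420 genes. Most were low where they were expressed, with a median of 3.22 TPM at day 5 for the genes present only then and 3.48 TPM at day 0 for the others.

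The genes expressed only at day 5 were led by Dbx1, a homeobox gene of progenitors in the middle of the neural tube. Dbx1 stood at 317, 260 and 284 TPM in the day 5 controls and had no count in any day 0 control, a rise of at least 3412-fold against a floor of 3 counts per library. Ptn, which encodes the secreted growth factor pleiotrophin, reached 211, 232 and 220 TPM in the day 5 controls, again without a count at day 0 (at least 1988-fold higher). Fat3, an atypical cadherin, was at least 481-fold higher, Itgb8, an integrin subunit, at least 377-fold, and Pcdh18, a protocadherin, at least 298-fold. Hoxb5os, transcribed antisense to the Hoxb cluster, was at least 452-fold higher, with the reservation that the strand setting of the counting is not given.

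The genes expressed only at day 0 were led by Rpl39l, a paralogue of a ribosomal protein gene, at 167 TPM, and by Crxos, which lies antisense to Crx and encodes a homeodomain protein of the early embryo. Crxos stood at 0 TPM in all 3 day 5 controls and at 114, 169 and 158 TPM in the day 0 controls, which puts it at least 770-fold lower at day 5, with the same reservation on strand. Spic, an ETS factor, was likewise without a count in the day 5 controls and stood at 39.04, 40.4 and 33.5 TPM in the day 0 controls (at least 357-fold lower). Osm, the cytokine oncostatin M, was at least 301-fold lower and Aspa, aspartoacylase, at least 282-fold lower. The day 0 values of Aspa, 14.4, 16.8 and 39.7 TPM, differed more between libraries than those of Spic.

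The base composition of promoters is shown for 4 examples before it is counted. They were chosen after their values were seen, to set an abundant gene without net change (Actg1, cytoplasmic actin) and a gene that rose within a high level (Tuba1a, a tubulin) beside the 2 genes without a day 5 count just described. The windows are the 250 bases before the annotated start, from RefSeq on GRCm38.p6, written 5′ to 3′ on the gene's strand, with each CG dinucleotide in capitals.
Actg1: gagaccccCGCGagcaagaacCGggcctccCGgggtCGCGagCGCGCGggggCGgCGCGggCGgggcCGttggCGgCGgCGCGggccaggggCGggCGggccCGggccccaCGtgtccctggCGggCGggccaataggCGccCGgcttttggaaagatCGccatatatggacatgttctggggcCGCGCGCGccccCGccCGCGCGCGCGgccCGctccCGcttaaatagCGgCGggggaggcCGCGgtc
Tuba1a: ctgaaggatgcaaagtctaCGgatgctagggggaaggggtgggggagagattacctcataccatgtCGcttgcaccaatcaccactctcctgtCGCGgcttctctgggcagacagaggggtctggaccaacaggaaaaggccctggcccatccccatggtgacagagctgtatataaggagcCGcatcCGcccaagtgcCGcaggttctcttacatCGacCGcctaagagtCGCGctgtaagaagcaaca
Spic: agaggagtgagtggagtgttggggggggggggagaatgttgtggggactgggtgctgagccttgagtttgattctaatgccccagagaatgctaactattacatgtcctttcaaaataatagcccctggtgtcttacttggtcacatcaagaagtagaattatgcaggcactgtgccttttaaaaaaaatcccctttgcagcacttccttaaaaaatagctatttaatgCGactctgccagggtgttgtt
Crxos: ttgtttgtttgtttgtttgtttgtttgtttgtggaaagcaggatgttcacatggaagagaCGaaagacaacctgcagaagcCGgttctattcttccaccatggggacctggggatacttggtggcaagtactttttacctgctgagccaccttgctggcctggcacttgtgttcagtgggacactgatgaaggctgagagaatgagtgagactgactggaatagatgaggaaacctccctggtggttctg
They lie at chr11:120348496-120348745 (Actg1, minus strand), chr15:98953502-98953751 (Tuba1a, minus strand), chr10:88683024-88683273 (Spic, minus strand) and chr7:15882367-15882616 (Crxos, plus strand). The Actg1 window holds 43 CG dinucleotides, that of Tuba1a 11, that of Crxos 2 and that of Spic 1.

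Across protein-coding genes, 80.9% of those tested and looked up had a RefSeq window (250 bases before to 50 after the start). Among genes with no net change beyond 1.5-fold, 84.9% of the windows had an observed-over-expected CG ratio of at least 0.6, against 69.3% of all tested genes and 36.5% of all RefSeq windows. Genes without net change were more often highly expressed, and the 2 properties were not separated. For protein-coding genes changed at least 2-fold, coverage was just under 80%, because RefSeq windows were not held for every gene. A window was found for 78.6% of those that rose and 79.5% of those that fell. Among these windows, the ratio was at least 0.6 for 64.6% of genes that rose and 49.5% of genes that fell. Genes without a window could move these shares, no test was made, and expression level was not separated here either.

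Naive pluripotency genes were lower at day 5. All 18 of the naive pluripotency genes tested fell, with a median log2 fold change of -8.65. Counts of list members here and below stand beside 38.9% higher and 40.3% lower over all genes tested. Pou5f1, which encodes OCT4, stood at 5.33, 4.91 and 2.93 TPM in the day 5 controls and at 1288, 1292 and 1257 TPM in the day 0 controls, a log2 fold change of -8.60 ± 0.17 (SE; adjusted p = 2.4e-18, edgeR). Nanog was at 1.19, 0.87 and 0.64 TPM at day 5 and at 576, 550 and 665 TPM at day 0. The groups were far apart and did not overlap for either gene. Of all genes tested, 40.0% lay wholly lower at day 5. The largest drop in absolute level in this list was that of Dppa5a, an RNA-binding protein gene of early embryonic cells, at 20.4, 19.5 and 10.8 TPM in day 5 libraries and 4265, 4227 and 4664 TPM in day 0 libraries. Tdh, the threonine dehydrogenase that mouse stem cells depend on, was at 0.54 ± 0.33 TPM at day 5 and at 754 ± 62.0 TPM at day 0 (SD, n = 3 each). Tcl1, a cofactor of AKT, averaged 0.09 TPM at day 5 and 164 TPM at day 0, and Fgf4, the FGF ligand secreted by stem cells, 0.09 TPM at day 5 and 122 TPM at day 0.

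The core and formative genes were less uniform, with 13 of 16 lower, 3 higher and a median log2 fold change of -5.59. Sox2, which serves both the pluripotency network and neural progenitors, was at 222, 201 and 214 TPM in the day 5 controls and at 307, 277 and 326 TPM in the day 0 controls. That is a net log2 fold change of -0.77. The control day 3 libraries averaged 22.2 TPM; both endpoints were above the intermediate time. Trim71, a ubiquitin ligase and RNA-binding protein of stem and progenitor cells, had no net change beyond 1.5-fold, at 41.9 TPM at day 5 and 43.4 TPM at day 0. Lef1, a transcription factor of WNT signalling, rose to 11.9 TPM at day 5 against 1.63 TPM at day 0. Fgf5 and Pou3f1, genes of the formative state, also rose, but stayed low, at 0.64 and 1.49 TPM at day 5 and 0.21 and 0.81 TPM at day 0.

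Germline genes were lower with them. All 13 of the germ cell genes tested fell (median log2 fold change -5.43). Tex19.1, which acts against retrotransposons in the germline, averaged 0.39 TPM at day 5 and 57.8 TPM at day 0, and Tfap2c, a transcription factor of primordial germ cells, 0.67 TPM at day 5 and 34.8 TPM at day 0. Dazl, an RNA-binding protein of germ cells, had a trace of reads in 1 of the day 5 controls and 17.9, 13.3 and 14.8 TPM in the day 0 controls. Of the 12 genes of the two-cell-like state, 3 passed the filter, and Zscan4f, the clearest marker among them, reached 0.16 TPM in the day 0 mean. Zscan4 copies share reads and their split is uncertain.

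Neural progenitor genes were the reverse of this. Of 17 tested, 16 rose and 1 fell, with a median log2 fold change of 7.04. Pax6, a master regulator of neural progenitors, averaged 216 TPM at day 5 and 4.22 TPM at day 0. Irx3, which marks the middle of the neural tube, averaged 176 TPM at day 5 and 0.22 TPM at day 0. Sox3, a SOXB1 factor, stood at 173, 179 and 177 TPM in the day 5 controls and 0.68, 0.45 and 0.51 TPM in the day 0 controls, with a log2 fold change of 8.08 ± 0.22 (SE; adjusted p = 8.5e-19, edgeR). Hes5, the Notch target of dividing progenitors, was at 182, 192 and 189 TPM at day 5, and had a few reads in 1 of the day 0 libraries only. Fabp7, the fatty acid-binding protein of radial glia, was at 30.7, 31.3 and 26.8 TPM at day 5 without a count at day 0, at least 117-fold higher. The exception was Nkx6-2, a homeobox gene of the ventral neural tube, which fell to 1.20 TPM at day 5 against 3.22 TPM at day 0. For the genes given by library, the day 5 replicates lay close together, while the day 0 values were at or near 0. The groups did not overlap, which was common. Over all genes tested, 39.1% lay wholly higher and 40.0% wholly lower at day 5.

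Genes of young neurons were more divided than those of the progenitors. Of 15 tested, 10 rose and 5 fell, beside 38.9% and 40.3% of all genes tested, and the median log2 fold change was 1.55. Those that rose were low, such as Elavl3 and Elavl4, RNA-binding proteins of early neurons, at 4.63 and 3.05 TPM at day 5 and 0.97 and 0.34 TPM at day 0. Those that fell were expressed in the stem cells. Tubb3, the neuronal beta-tubulin, averaged 16.5 TPM at day 5 and 91.4 TPM at day 0 (log2 fold change -2.73), and Stmn2, a microtubule regulator of axons, 5.69 TPM at day 5 and 75.05 TPM at day 0 (-3.93). Nefl and Nefm, neurofilament subunits, were also lower. Forebrain and midbrain markers gave 1 rise and 5 falls among 7 tested, beside the same shares, and none of them exceeded 1.51 TPM at day 5.

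Somite genes rose almost without exception, by 12 of 13 tested and a median log2 fold change of 5.31. Meox1, a homeobox gene of the somites, averaged 52.0 TPM at day 5 and 0.19 TPM at day 0. Pax3, which marks the dermomyotome and the dorsal neural tube, averaged 7.79 TPM at day 5 and had no count at day 0. Tcf15, a bHLH factor of somites that stem cells also use, rose to 30.2 TPM at day 5 against 7.97 TPM at day 0. Tbx18, a factor of the anterior somite, fell, at 0.29 TPM at day 5 and 1.63 TPM at day 0. Upstream of them, 5 of 7 presomitic genes rose and none fell. Those with the highest day 5 levels, Dll1, a Notch ligand, and Lfng, a modifier of Notch, at 67.6 and 84.0 TPM, are also expressed by neural progenitors. Tbx6, the defining factor of presomitic mesoderm, was at 0.37 TPM at day 5 and 0.43 TPM at day 0 and was not called.

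Primitive streak genes, which are used between the endpoints, were mostly lower in the net change. Of 11 tested, 8 fell and 3 rose, with a median log2 fold change of -6.57. T (Brachyury), the defining factor of the streak and the tailbud, stood at 6.11, 7.32 and 6.78 TPM in the day 5 controls and 2.19, 1.46 and 0.48 TPM in the day 0 controls. The net log2 fold change was 2.05, and the control day 3 libraries averaged 599 TPM. Nodal and its inhibitor Lefty2, which are active in stem cells as well as in the embryo's streak, fell to 0.45 and 0.10 TPM at day 5, against 82.8 and 65.3 TPM at day 0. Wnt3, a ligand of the early streak, rose to 1.90 TPM at day 5 against 0.09 TPM at day 0. In the tailbud list 5 of 10 rose and 2 fell, beside 38.9% and 40.3% of all genes tested. Cdx2 and Nkx1-2, its transcription factors, were at 1.36 and 2.41 TPM at day 5 and at 1.12 and 1.54 TPM at day 0 and were not called. Lin28b, an RNA-binding protein that inhibits let-7, was the highest of the list, at 36.3 TPM at day 5 and 0.44 TPM at day 0.

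Markers of other tissues were mostly low at both endpoints. Their counts stand beside 38.9% higher and 40.3% lower over all genes tested. In the list for heart, lateral and intermediate mesoderm 1 gene rose and 6 fell among 9 tested, with no member above 1.88 TPM at day 5. In the endothelial and blood list 4 rose and 4 fell among 10 tested, shares close to those over all genes tested, and no member exceeded 1.22 TPM at day 5. Pecam1, the endothelial adhesion molecule that mouse stem cells also express, fell to 0.33 TPM at day 5 against 56.8 TPM at day 0. Endoderm genes gave 3 rises and 2 falls among 6 tested. Sox17 was at 0.20 TPM at day 5 and 0.42 TPM at day 0 and not called, and Foxa2 rose to 1.47 TPM at day 5 against 0.08 TPM at day 0. Neural crest genes gave 4 rises and 3 falls among 8, including Sox9, which rose to 6.01 TPM at day 5 against 0.02 TPM at day 0, and Foxd3, also a stem cell gene, which fell to 0.01 TPM at day 5 against 19.01 TPM at day 0. Trophoblast genes gave no rise and 3 falls among 5. Fibroblast genes gave 3 rises and 1 fall among 4, the highest at day 5 being Pdgfrb at 3.68 TPM. The part that changes in cell composition had in any result was not tested.

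**Figure D2:**
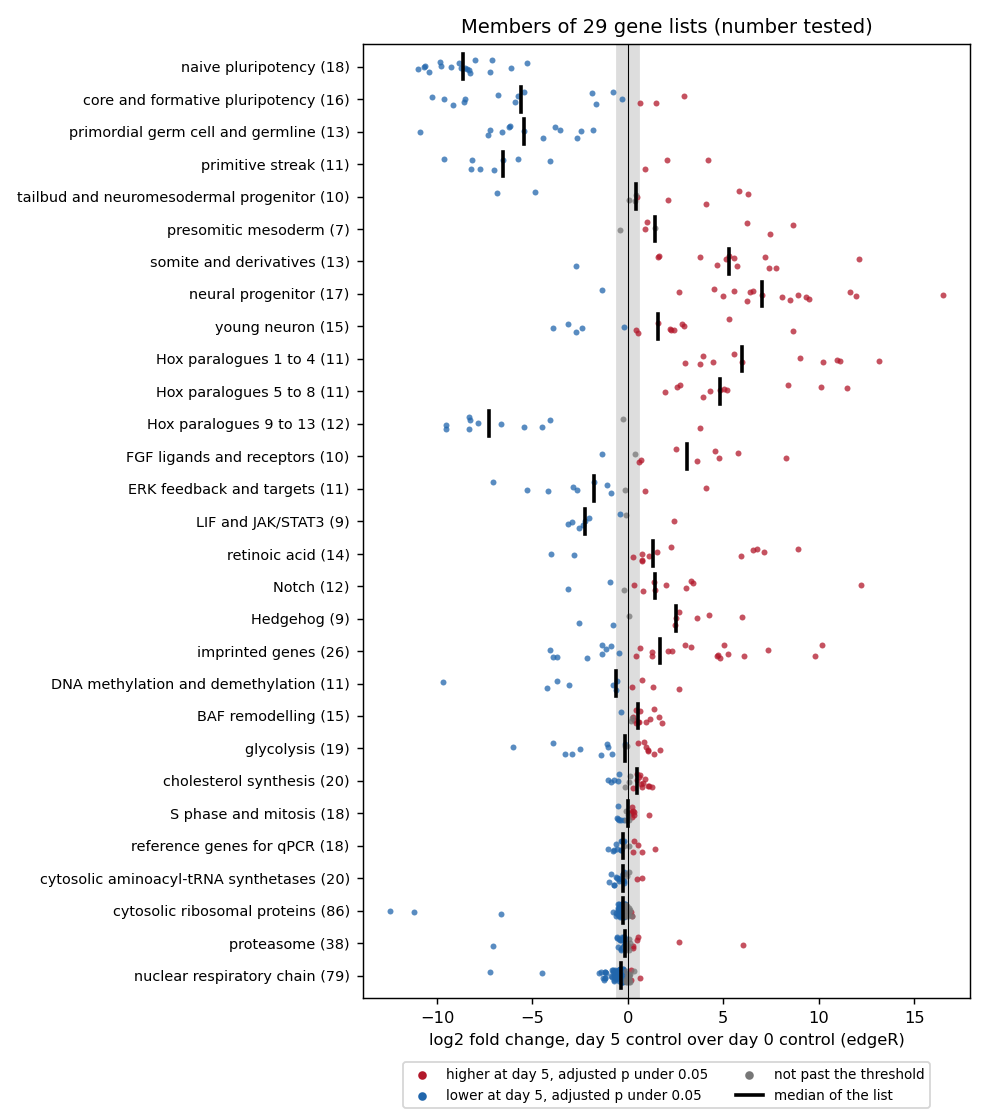
Log2 fold change (day 5 over day 0) of the tested members reported here of 29 gene lists, with a row for each list, the median as a bar and the range within 1.5-fold of no change shaded. Naive pluripotency and germline genes lie wholly to the left of 0, the lists of neural progenitors, somites and anterior Hox genes almost wholly to the right, and most ribosomal, proteasome and tRNA synthetase genes close to 0.

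The Hox genes split by their position. The 11 genes reported here of paralogue groups 1 to 4 and the 11 of groups 5 to 8 all rose, with median log2 fold changes of 5.96 and 4.83. In groups 9 to 13, 10 of 12 tested fell, with a median of -7.27. Hoxb9 was the exception that rose, averaging 154 TPM at day 5, the highest level of any Hox gene at that time, and 10.4 TPM at day 0. Hoxc9 was at 0.39 TPM in both means and was not called. The other posterior genes were at or near 0 at day 5 and at low levels at day 0. Hoxc13 averaged 0.05 TPM at day 5 and 12.9 TPM at day 0, Hoxc12 0 TPM at day 5 and 4.34 TPM at day 0, and Hoxd13 0 TPM at day 5 and 1.61 TPM at day 0. Summed over the uninterrupted run from Hoxb1 to Hoxb9, on chromosome 11 from 96271457 to 96368256 (GRCm38), the normalized counts (CPM, scaled for depth and composition) were 671, 679 and 706 in the day 5 controls and 19.6, 26.1 and 18.1 in the day 0 controls.

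**Figure D3:**
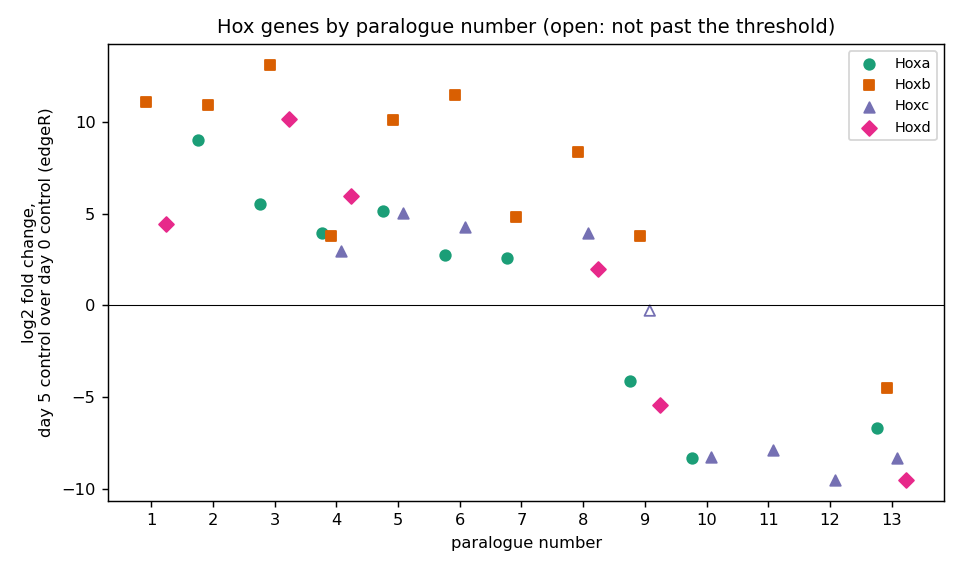
Log2 fold change (day 5 over day 0, edgeR) of each Hox gene reported here against its paralogue number, with a colour and shape for each of the 4 clusters and an open symbol for Hoxc9, which was not past the threshold. The symbols of numbers 1 to 8 lie above 0, as does Hoxb9, and the other filled symbols of numbers 9 to 13 lie below 0.

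Genes of retinoic acid signalling, which patterns the trunk and induces anterior Hox genes, were mostly higher at day 5, with 12 of 14 tested genes up and 2 down. Crabp1 and Crabp2 encode the proteins that bind retinoic acid in the cytoplasm. Crabp1 stood at 2474, 2287 and 1989 TPM in the day 5 controls and 14.7, 12.4 and 12.9 TPM in the day 0 controls, and Crabp2 at 2117, 2206 and 2159 TPM in the day 5 controls and 3.10, 4.59 and 4.06 TPM in the day 0 controls. Their log2 fold changes were 7.14 ± 0.22 and 8.88 ± 0.12 (SE). Stra6, a retinol transporter, rose to 12.1 TPM at day 5 against 0.10 TPM at day 0, and Aldh1a2, the main enzyme that makes retinoic acid in the trunk, to 9.75 TPM at day 5 against 2.76 TPM at day 0. The receptors exchanged places. Rarb made up 49.6% of the summed TPM of the 3 receptor genes at day 5 and 1.20% at day 0, and Rarg 7.63% at day 5 and 66.9% at day 0. Stra8, a retinoic acid target of germ cells, fell to 0.31 TPM at day 5 against 3.99 TPM at day 0.

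FGF components rose in 8 of 10 tested genes and fell in 1, beside 38.9% and 40.3% of all genes tested. The summed level of the 4 receptor genes was 276 ± 12.3 TPM at day 5 and 51.3 ± 6.32 TPM at day 0 (SD, n = 3 each). Fgfr2 averaged 133 TPM at day 5 and 4.78 TPM at day 0, and Fgfr3, which is typical of neural progenitors, 53.9 TPM at day 5 and 0.19 TPM at day 0. The genes that ERK signalling induces went mostly the other way, with 8 of 11 lower, 2 higher and a median log2 fold change of -1.80. Etv5 and Etv4, ETS factors downstream of FGF, fell to 2.04 and 2.51 TPM in the day 5 controls, against 232 and 76.0 TPM in the day 0 controls, whose medium held the MEK inhibitor. Dusp6, a phosphatase that dampens ERK, had no net change beyond 1.5-fold, while Dusp4, a related phosphatase, rose to 17.0 TPM at day 5 against 0.86 TPM at day 0. In the LIF and STAT3 list 7 of 9 fell and 1 rose. Stat3 was at 5.32 TPM at day 5 and 40.1 TPM at day 0 and Pim1, a kinase it induces, at 21.1 TPM at day 5 and 133 TPM at day 0. The receptor subunit Il6st and the kinase Jak1 were within 1.5-fold of no change at 19.3 and 17.7 TPM at day 5 and 26.8 and 16.2 TPM at day 0, and Jak2 rose to 28.1 TPM at day 5 against 4.33 TPM at day 0.

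Notch and Hedgehog components were mostly higher. Notch genes gave 9 rises and 2 falls among 12, beside 38.9% and 40.3% of all genes tested. Heyl, a transcription factor downstream of Notch, averaged 6.84 TPM at day 5 and had no count at day 0, while Notch4, the receptor of endothelium, fell to 4.72 TPM at day 5 against 17.97 TPM at day 0. Hedgehog genes gave 6 rises and 2 falls among 9, beside the same shares. Gas1, a co-receptor, averaged 135 TPM at day 5 and 1.80 TPM at day 0, and Smo, the signal transducer, 106 TPM at day 5 and 7.23 TPM at day 0. Ptch1, the receptor and a common target of the pathway, had no net change beyond 1.5-fold, at 29.5 TPM at day 5 and 23.6 TPM at day 0, while Gli1, also a target, rose to 7.68 TPM at day 5 against 1.06 TPM at day 0.

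In several families the leading member differed between the endpoints while the summed level stayed close. The 4 classical cadherin genes summed to 168 ± 13.98 TPM at day 5 and 155 ± 23.1 TPM at day 0 (SD, n = 3 each). Within this sum Cdh2, N-cadherin, took 96.2%, 95.7% and 96.0% in the day 5 controls and 1.46%, 1.10% and 0.899% in the day 0 controls. Cdh1, E-cadherin, took the complementary place, with 1.28% at day 5 and 93.3% at day 0. The 2 glucose transporter genes summed to 609 ± 17.9 TPM at day 5 and 614 ± 44.7 TPM at day 0, and Slc2a1 held 90.8% of this at day 5 and 23.6% at day 0, the rest being Slc2a3. Lactate dehydrogenase summed to 948 ± 55.1 TPM at day 5 and 895 ± 61.6 TPM at day 0, with Ldha, the muscle-type subunit, at 95.6% at day 5 and 40.5% at day 0 and the remainder from Ldhb. The group ranges of these 3 sums overlapped. For the sums no test was made.

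Other families differed between the endpoints in their composition, and most of them also in their sum. The D-type cyclins, which drive entry into S phase, summed to 617 ± 41.3 TPM at day 5 and 372 ± 10.2 TPM at day 0. Ccnd2 held 75.1% of this at day 5 and 0.13% at day 0, and Ccnd3 14.2% at day 5 and 92.7% at day 0. The SALL zinc-finger factors summed to 199 ± 12.4 TPM at day 5 and 172 ± 7.72 TPM at day 0, with Sall2 at 49.5% at day 5 and 1.77% at day 0 and Sall4 at 16.5% at day 5 and 61.0% at day 0. The de novo DNA methyltransferase genes summed to 54.9 ± 3.25 TPM at day 5 and 53.5 ± 17.3 TPM at day 0. Dnmt3b held the largest share at both endpoints, with 53.8% at day 5 and 69.2% at day 0. Dnmt3a took 46.2% at day 5 and 14.5% at day 0, and Dnmt3l, the cofactor without catalytic activity, 0.019% at day 5 and 16.4% at day 0. Dnmt3l was uneven between the day 0 controls, at 5.01, 3.48 and 21.5 TPM. The TET enzymes, which oxidise methylated cytosine, summed to 27.9 ± 7.61 TPM at day 5 against 84.5 ± 19.8 TPM at day 0, and Tet3 was the one that rose, to 61.0% of the sum at day 5 against 2.59% at day 0. Hexokinase genes summed to 38.2 ± 1.10 TPM at day 5 and 204 ± 17.7 TPM at day 0, and LIN28 genes to 156 ± 12.5 TPM at day 5 and 7.34 ± 1.94 TPM at day 0.

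**Figure D4:**
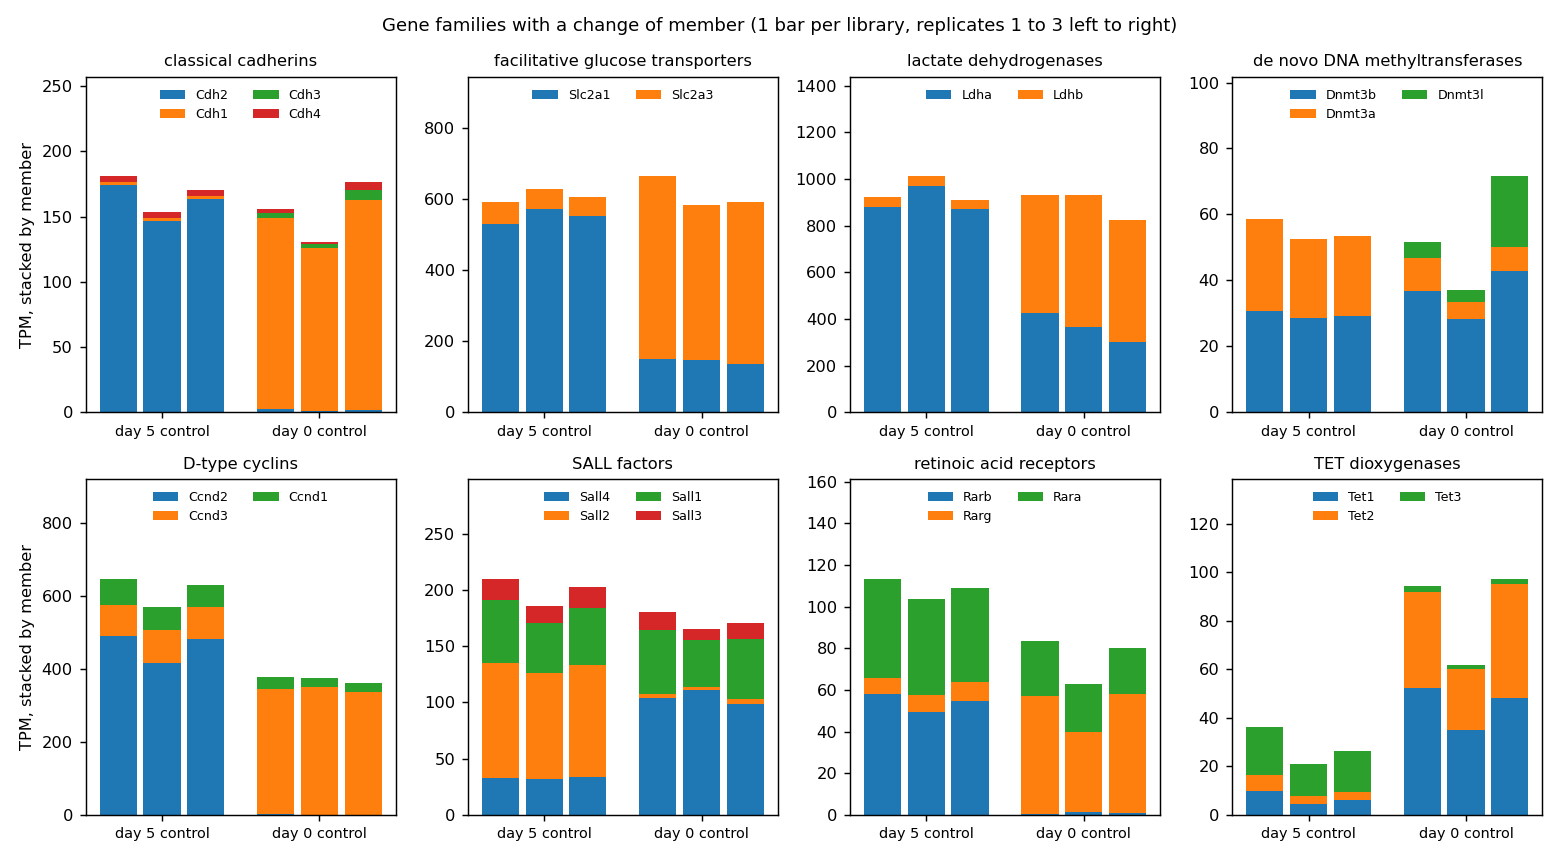
TPM of the members of 8 gene families, stacked by member, with 1 bar for each of the 3 day 5 controls on the left and each of the 3 day 0 controls on the right of every panel. Cadherins, glucose transporters and lactate dehydrogenases have bars of similar height in both groups, with another member filling most of the bar.

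Abundant genes without net change included an elongation factor, a cyclophilin, an actin and a pair of tubulins. Eef1a1, the elongation factor that brings aminoacyl-tRNA to the ribosome, stood at 11973, 12944 and 12497 TPM in the day 5 controls and 13321, 13557 and 13396 TPM in the day 0 controls, with a log2 fold change of -0.36 (95% interval -0.45 to -0.27). Ppia, cyclophilin A, averaged 4246 TPM at day 5 and 4406 TPM at day 0 (-0.30), Tpt1, a conserved growth-related protein, 3319 TPM at day 5 and 2743 TPM at day 0 (0.06), and Actg1 1737 TPM at day 5 and 1845 TPM at day 0 (-0.32). Tuba1b and Tubb5, the tubulins of dividing cells, had log2 fold changes of 0.22 and 0.34 with TPM means of 2559 and 2144 at day 5 and 1835 and 1408 at day 0. The ratio of their TPM was larger than the edgeR fold change, which takes out a difference in composition between the groups.

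Genes used as internal standards in quantitative PCR were not uniformly stable. Of 18, 5 rose and 11 fell, and 10 had no net change beyond 1.5-fold, a set that includes genes with small called changes. The share without net change was 54.9% among all tested genes at 100 TPM or more. On the TPM scale 6 rose and 6 fell, so the excess of falls depends on the scaling. Actb, the commonest of them, stood at 1601, 1575 and 1584 TPM in the day 5 controls and 2738, 2502 and 3039 TPM in the day 0 controls, a log2 fold change of -1.05 ± 0.06 (SE; adjusted p = 2.7e-12, edgeR). Gapdh was at 6137, 6311 and 6172 TPM in the day 5 controls and at 7647, 7752 and 7565 TPM in the day 0 controls (-0.56). B2m, a subunit of MHC class I, lay between 40.15 and 51.01 TPM at day 5 and between 12.57 and 15.76 TPM at day 0. Reads assigned to Hprt, the gene of a purine salvage enzyme, rose to 27.6 TPM at day 5 against 13.8 TPM at day 0. Whether this line makes a functional Hprt transcript was not tested. Within the set, Rplp0 (0.06) and Polr2a (-0.23) were not called and were held within 1.5-fold.

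The large housekeeping lists moved little and mostly down. Among all tested genes at 100 TPM or more, 54.9% had no net change beyond 1.5-fold. Of 86 cytosolic ribosomal protein genes 67 had no net change beyond 1.5-fold, 70 fell, 2 rose, and the median log2 fold change was -0.27. On the log2(TPM + 1) scale 15 rose and 29 fell, with a median of -0.02, so most of this small change depends on the scaling. Exceptions beyond 2-fold were paralogues with restricted expression, such as Rpl10l, which stood at 0.06, 0.11 and 0.14 TPM in the day 5 controls and 190, 231 and 237 TPM in the day 0 controls. Reads of Rpl10l and Rpl39l could be shared with their near-identical parent genes, so these levels are uncertain. Proteasome genes gave 29 of 38 without net change, and their direction flipped with the scaling (6 rose and 23 fell in the edgeR fit, 15 rose and 8 fell on the TPM scale). Cytosolic tRNA synthetases gave 12 of 20 without net change, 15 fell and 2 rose (5 rose and 8 fell on the TPM scale).

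Among 79 nuclear genes of the respiratory chain, 44 had no net change beyond 1.5-fold, 60 fell and 3 rose (19 rose and 39 fell on the TPM scale). The share without net change was 54.9% among all tested genes at 100 TPM or more, whatever their list. Atp5b, the catalytic beta subunit of ATP synthase, fell to 1346 TPM at day 5 against 2610 TPM at day 0. Cox7a1 and Cox7b2, subunit paralogues of cytochrome oxidase, averaged 3.65 and 0.11 TPM at day 5 and 69.6 and 17.2 TPM at day 0. Of the 13 mitochondrially encoded mRNAs 7 had no net change beyond 1.5-fold, 6 fell and 2 rose (5 rose and 4 fell with library size alone and on the TPM scale). Among 18 genes of S phase and mitosis, 14 had no net change beyond 1.5-fold, 8 rose and 6 fell, with a median of 0.01. On the TPM scale 12 rose and 5 fell, with a median of 0.27. The largest change there was in Mki67, a marker of dividing cells, at 99.8 ± 13.1 TPM at day 5 and 38.8 ± 4.59 TPM at day 0 (log2 fold change 1.10). Regulators of G1 were divided, with 5 of 14 up and 8 down, beside 38.9% and 40.3% of all genes tested. Ccne2, a cyclin of S phase entry, rose to 25.6 TPM at day 5 against 6.90 TPM at day 0, and Cdkn2b, an inhibitor of CDK4, fell to 0.68 TPM at day 5 against 5.95 TPM at day 0. In the replication list again, Mcm5, of the replicative helicase, and Plk1, a mitotic kinase, were not called, with log2 fold changes of -0.01 and -0.09.

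Metabolic lists were mixed. In glycolysis 7 of 19 rose and 10 fell, against 38.9% and 40.3% of all genes tested. Pfkp, a phosphofructokinase, fell to 1.74 TPM at day 5 against 126 TPM at day 0 while Pfkl, its liver-type paralogue, rose to 133 TPM at day 5 against 53.4 TPM at day 0. Pkm, Eno1 and Pgam1, enzymes of the lower pathway, had no net change beyond 1.5-fold (log2 fold changes -0.03, -0.16 and -0.13), and Pkm and Eno1 had the opposite sign on the log2(TPM + 1) scale. The list's median was -0.16 in the edgeR fit and 0.09 on the log2(TPM + 1) scale, so its sign flips. Cholesterol synthesis genes rose in 12 of 20 and fell in 5, with a median of 0.49. Idi1 and Hmgcs1, of the mevalonate steps, averaged 130 and 259 TPM at day 5 and 45.4 and 100.2 TPM at day 0. In serine, folate and proline synthesis 2 rose and 8 fell of 11, and on the TPM scale 3 rose and 4 fell. Asns, asparagine synthetase, stood at 145, 151 and 151 TPM in the day 5 controls and 576, 641 and 578 TPM in the day 0 controls.

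Among chromatin genes, the CBX genes of PRC1 had a different leading member at each endpoint. Polycomb genes gave 4 rises and 9 falls among 16. Ring1, an E3 ligase subunit of PRC1, stood at 63.6, 64.5 and 66.5 TPM in the day 5 controls and 9.22, 8.24 and 8.61 TPM in the day 0 controls (log2 fold change 2.62 ± 0.07, SE), while its paralogue Rnf2 had no net change beyond 1.5-fold, at 68.0 TPM at day 5 and 65.1 TPM at day 0. Cbx2 took 63.2% of the summed TPM of the 5 CBX genes of PRC1 at day 5 and 10.5% at day 0, and Cbx7, the stem cell member, 4.76% at day 5 and 58.8% at day 0. In PRC2, Suz12, a core subunit, and Jarid2, an accessory one, fell to 37.4 and 14.7 TPM at day 5, against 143 and 61.9 TPM at day 0, and Ezh2, the methyltransferase, rose to 273 TPM at day 5 against 143 TPM at day 0. BAF remodelling genes gave 12 rises and 1 fall among 15, with a median of 0.50, led by Smarce1, at 346 ± 1.40 TPM at day 5 and 89.0 ± 7.43 TPM at day 0. In the list of R-loop processing, which contains Rnaseh1, 7 of 14 rose, 6 fell and 5 had no net change beyond 1.5-fold, with a median of 0.05. Over all genes tested, 38.9% rose, 40.3% fell and 23.1% had no net change beyond 1.5-fold. In the list of H2A.Z and its exchange complexes 7 of 10 rose and 1 fell, with a median of 0.34. H2afv, which encodes a variant of H2A.Z, rose to 412 TPM at day 5 against 166 TPM at day 0, and Ino80, a remodeller ATPase, fell to 9.12 TPM at day 5 against 18.9 TPM at day 0. DNA methylation and demethylation genes gave 4 rises and 7 falls among 11. Dnmt1, the maintenance methyltransferase, had a log2 fold change of 0.21 at 159 TPM at day 5 and 117 TPM at day 0. Zfp57, which protects imprinted loci from demethylation, fell to 24.8 TPM at day 5 against 388 TPM at day 0.

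Imprinted genes had no member held within 1.5-fold in the edgeR fit, against 23.1% of all genes tested. With library size alone 1 was held within that range, and on the log2(TPM + 1) scale 4 were. Of 26, 17 rose and 9 fell, beside 38.9% and 40.3% of all genes tested, and the median log2 fold change was 1.66. Nnat, neuronatin, averaged 669 TPM at day 5 and 0.47 TPM at day 0, Igf2, the fetal growth factor, 121 TPM at day 5 and 0.09 TPM at day 0, and H19, the noncoding RNA beside it, 47.3 TPM at day 5 and 0.31 TPM at day 0. Mest and Peg10, both expressed from the paternal allele, rose to 953 and 247 TPM at day 5, against 27.6 and 5.46 TPM at day 0. Meg3, Rian and Mirg, maternally expressed noncoding RNAs of 1 locus, fell to 285, 218 and 35.9 TPM at day 5, against 545, 340 and 81.7 TPM at day 0. Allele-specific levels are not given by these counts. RNA-binding proteins of development were mostly higher, with 12 of 19 up and 3 down, beside the shares just given for all genes. Lin28a, which inhibits let-7, stood at 128, 112 and 118 TPM in the day 5 controls and 9.01, 6.24 and 5.47 TPM in the day 0 controls, and Msi1, Musashi, of neural progenitors, at 327, 288 and 309 TPM in the day 5 controls and 44.8, 40.3 and 42.1 TPM in the day 0 controls. Ptbp1, the splicing repressor, was at 572 TPM at day 5 and 443 TPM at day 0 without net change beyond 1.5-fold, and its neural paralogue Ptbp2 rose to 128 TPM at day 5 against 26.0 TPM at day 0.

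Of 9 intermediate filament and lamin genes 4 rose and 2 fell, beside 38.9% and 40.3% of all genes tested. Nes, nestin of neural progenitors, stood at 88.9, 72.2 and 75.4 TPM in the day 5 controls and 9.42, 10.7 and 8.23 TPM in the day 0 controls, and Lmna, lamin A and C, fell to 3.85 TPM at day 5 against 12.4 TPM at day 0. In the epithelial and mesenchymal list 8 rose and 8 fell of 17, shares a little above the 38.9% and 40.3% of all genes tested. Zeb2, a repressor of E-cadherin, rose to 21.2 TPM at day 5 against 0.11 TPM at day 0, Cldn4, a tight-junction protein, fell to 0.80 TPM at day 5 against 58.7 TPM at day 0, and Snai1 was held within 1.5-fold at 2.12 TPM at day 5 and 1.77 TPM at day 0. Fn1, fibronectin, fell to 74.7 ± 2.83 TPM at day 5 against 481 ± 39.4 TPM at day 0. Collagens and other matrix genes gave 11 rises and 3 falls among 14, with Col2a1, the collagen of cartilage and notochord, at 48.3 TPM at day 5 and 1.48 TPM at day 0. Sparc and Hspg2, a matrix glycoprotein and the basement-membrane proteoglycan perlecan, fell to 32.2 and 20.9 TPM at day 5, against 189 and 123 TPM at day 0. Mt2, a metallothionein induced by metals, fell to 93.3, 78.8 and 68.7 TPM in the day 5 controls, but its day 0 controls ranged widely, at 2029, 2649 and 606 TPM.

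For a small part of the genes, equal endpoints did not mean a constant course. Of the 4109 genes with no net change beyond 1.5-fold, 53 were at least 2-fold higher and 58 at least 2-fold lower in the day 3 controls than at both endpoints. The rest of the 4109, the great majority, met neither condition. The same count was not made for other genes. At least 4-fold, the counts were 16 and 13. The control day 3 libraries share no sample with either endpoint. Cpeb1, a regulator of translation, averaged 2.36, 57.8 and 2.43 CPM at days 0, 3 and 5, and Igdcc4, a surface protein of the immunoglobulin family, 11.9, 138 and 13.4. Foxo1, a transcription factor downstream of insulin signalling, averaged 12.5, 91.9 and 10.9, Ptk7, a co-receptor of planar polarity, 127, 658 and 142, and Dusp6 17.4, 108 and 15.8. Ina, the neurofilament alpha-internexin, averaged 13.4, 87.8 and 11.4.

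Among the genes with a low at day 3, Sox21, a SOXB2 factor, averaged 77.3, 0.836 and 89.3 CPM at days 0, 3 and 5. St8sia1, a ganglioside sialyltransferase, averaged 69.5, 0.132 and 56.6 and Lama1, a laminin chain, 95.2, 7.601 and 114. Vim, vimentin, which is often used as a mesenchymal marker, stood at 464, 411 and 418 TPM in the day 5 controls and 389, 475 and 387 TPM in the day 0 controls. The groups overlapped, the log2 fold change was -0.21 (95% interval -0.44 to 0.02, adjusted p = 0.091, edgeR), and the day 3 controls averaged 85.3 TPM. The day 3 values of these genes are a description, since the genes were picked by them. On the log2(TPM + 1) scale the small net changes of Foxo1 and Ina had the opposite sign.

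**Figure D5:**
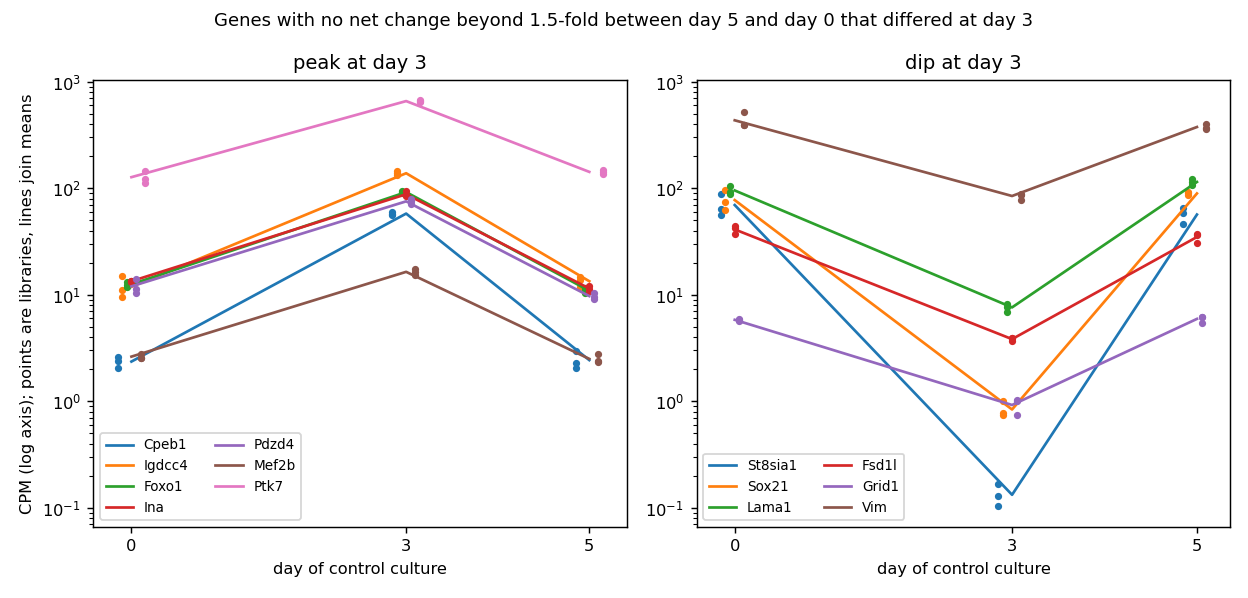
CPM at days 0, 3 and 5 in each control library (points) with lines through the means, on a log axis, for genes with no net change beyond 1.5-fold and at least a 4-fold difference at day 3. Genes in the left panel peak and genes in the right panel dip at day 3.

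Some of the changed genes lay next to each other on the genome. The longest run of tested neighbours that were all at least 4-fold lower held 22 genes on chromosome 4, from 145213463 to 147809788 (GRCm38), and reaches from Tnfrsf1b through a cluster of zinc-finger genes that includes Rex2. Their summed counts were 84.4, 94.0 and 92.8 CPM in the day 5 controls and 3043, 2721 and 3141 CPM in the day 0 controls. The zinc-finger copies resemble each other closely, so how reads were split among them is uncertain, while the sum is less affected. The longest run of neighbours at least 4-fold higher held 19 protocadherin genes, Pcdhac2 and members of the beta cluster, which encode adhesion proteins of neurons. They were low in sum, at 24.9, 23.5 and 24.4 CPM at day 5 and 0.351, 0.405 and 0.487 CPM at day 0. The run of 9 genes in the Hoxb cluster described above was the next longest upward. Shorter downward runs included Dppa3, Nanog and Slc2a3 with 3 further neighbours on chromosome 6, and Dppa5a and Ooep with 4 further neighbours on chromosome 9.

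The largest net gains in absolute level were made by genes already expressed in the stem cells as well as by new ones. Mdk, the growth factor midkine and a relative of Ptn, stood at 3026, 3217 and 3107 TPM in the day 5 controls and 280, 295 and 259 TPM in the day 0 controls, a log2 fold change of 3.22 ± 0.07 (SE; adjusted p = 2.2e-17, edgeR). Gnas, the G protein alpha subunit, averaged 1180 TPM at day 5 and 99.9 TPM at day 0, Tuba1a 1167 TPM at day 5 and 174 TPM at day 0, and Hmgn2, a nucleosome-binding protein, 917 TPM at day 5 and 228 TPM at day 0. The largest net losses beside Dppa5a and Pou5f1 included Hsp90aa1, the inducible HSP90 chaperone, at 950 TPM at day 5 and 3017 TPM at day 0 (log2 fold change -1.92), and Aldoa, the glycolytic aldolase, at 981 TPM at day 5 and 2169 TPM at day 0. Ferritin light chain pseudogenes ranked among them too, but share reads with Ftl1, and their levels are uncertain.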

How the data were processed

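Poly(A) RNA libraries of 6 groups with 3 libraries each were quantified by the authors. The deposited tables give, per gene and library, expected counts (estimated read counts that need not be whole) and TPM, both computed by the authors before deposit. The submitters' processing notes name the build GRCm38 and 4 tools: RSEM 1.3.3, Trimmomatic, DESeq2 1.38.2 and also STAR 2.7.10a. The annotation release, the strand setting and the role of each tool are not given in the sources used here.

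Expected counts were rounded to whole numbers and fitted with edgeR 4.0.16 (TMM normalization, filterByExpr, quasi-likelihood F-test) over all 18 libraries with a mean per group, which leaves 12 residual degrees of freedom, and p-values were adjusted by Benjamini-Hochberg over 17797 genes. The 95% interval is the coefficient ± t times its standard error, and a gene has no net change beyond 1.5-fold when the interval lies wholly within that range. The design planned to take this standard error from the F statistic. It was taken from the fit's weights instead, because the F statistic gives no usable error for groups without counts. CPM values use the TMM factors, and a floor of 3 counts per library bounds the fold of genes without a count. Such floors and intervals cover counting error and the spread between libraries only. The scripts were tested on simulated data. Genes sharing reads with close copies are uncertain.

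The replicate number is also the labels' batch, so it pairs libraries. The correlation of same-numbered day 5 and day 0 deviations from their group means was 0.0578, 0.113 and 0.00238. The fit without this block is the one reported. Alternatives were other scalings, tools, filters, samples, detection levels and ranges for no net change.

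The members and gene lists were chosen with earlier results of these data known. Named genes are those with the largest changes, the highest levels without net change, up to 4 changed and 2 unchanged members of each list, and family members. Other genes named were chosen after their values were seen. Runs are consecutive tested protein-coding genes. Promoter windows of chromosomes 18 and M were not used. A few genes are not reported here.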

Additional observations from a re-analysis of the deposited data

How the results depend on the processing

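With the replicate block the fit called 14224 genes, 8242 of them at least 2-fold, and held 4214 within 1.5-fold, against 14088, 8259 and 4109 without it; 4101 of the 4109 were the same genes. With that block no called named gene lost its call and 4 passed the threshold, and the count of rises or falls differed in 8 of 48 gene lists, by at most 4 genes. DESeq2 gave 14041, 8197 and 4124, and limma-voom 14113, 8262 and 4123. The 6 libraries alone gave 12825, 7441 and 3796. Leaving out 1 replicate at a time gave 13749 to 14022 calls, 8304 to 8415 of at least 2-fold, 3851 to 4012 genes without net change, 11053 to 11165 genes detected in both, 271 to 317 only at day 5 and 433 to 493 only at day 0. On log2(TPM + 1), 5460 genes were called at least 2-fold and 6198 were held within 1.5-fold. With a narrower range 1652 genes, and with a range of 2-fold 7102 genes, had no net change. Genes only at day 5 numbered 406 with detection at 0.5 TPM and 78 at 5 TPM, and genes only at day 0 numbered 120 at 5 TPM. Taking the standard error from the F statistic gave 4107 genes without net change, and leaving out the rRNA gene 4109; both were chosen after seeing the data.

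Of 5856 comparisons of a named gene with an alternative, 23 were counted as a change of sign, with scaling by library size alone or on TPM. With library size alone the log2 fold changes were 0.10 for Ptma, 0.14 for Igf2bp1 and 0.0079 for Eno1. On log2(TPM + 1) and log2(TPM + 0.1) they were 0.20 and 0.20 for Ptma and for Rps2, 0.0223 and 0.0224 for Ywhaz, 0.0193 and 0.0218 for Fsd1l, 0.0396 and 0.0575 for Foxo1, 0.0257 and 0.0298 for Ina, 0.0298 and 0.0300 for Shmt2, 0.22 and 0.22 for Pkm, 0.0861 and 0.0861 for Eno1, and 0.0720 and 0.0722 for Psmb6. Of the others, 94 fell below and 64 passed the threshold and 5675 kept their call. The 23 do not hold every difference in sign of a gene that was not called. Vim, not called in the edgeR fit, had a log2 fold change of -0.21 there. Its TPM means were 431 at day 5 and 417 at day 0. Library size alone moved the median of all genes to 0.15 and kept 3382 of the 4109 genes within 1.5-fold. The log2(TPM + 1) and log2(TPM + 0.1) scales kept 3089 and 2888 of them, and 493 and 491 of the 14088 called genes changed sign there. The median standard error of genes under 1 TPM, 0.536, limits what can be held within 1.5-fold at this depth.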
